A study of Mus musculus with 12 samples.

Results

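The keratin family was examined as a gauge of how often a promoter was called open in cells that are not epithelial. Its members were the 106 protein-coding genes of the GENCODE M21 annotation whose symbol is Krt and a number (49 keratins) or begins with Krtap (57 keratin associated proteins), out of 21951 protein-coding genes. The 4 keratins whose symbols end in a letter, Krt6a, Krt6b, Krt33a and Krt33b, lay outside this rule. ATAC-seq, in which a transposase cuts and tags accessible DNA, had been run on cultured skeletal muscle fibroblasts from the lower abdominal muscle of Aromhum mice, which carry the human aromatase gene on a transgene that converts androgen to estrogen. Every group shared this genotype, the first passage and serum-free medium. The groups were vehicle (ethanol and DMSO), E2 (estradiol, 10 nM), E2 (10 nM) plus fulvestrant (100 nM), and fulvestrant alone (100 nM), where fulvestrant is an estrogen receptor antagonist. Fulvestrant or DMSO was given 3 hours ahead, and E2 or ethanol for the final 1 hour. There were 3 libraries per treatment and 12 in all, and the ages of the animals were not given. Nothing in the labels says that libraries of a treatment came from separate animals or cultures, so p-values measure the spread between these libraries only.

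Keratins are intermediate filament proteins of epithelial cells. An acidic (type I) and a basic (type II) keratin pair to form each filament, and the pair marks the tissue: Krt8 and Krt18 in simple epithelia, Krt5 and Krt14 in the basal layer of stratified epithelia, Krt1 and Krt10 in the layers above it, and a further set in hair and its root sheath. Keratin associated proteins cross-link the keratins of the hair shaft. Fibroblasts build their intermediate filaments mainly from vimentin instead.

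In the mouse genome build mm10, 48 of the 106 genes lay on chromosome 11 (25 keratins, mainly type I, and 23 keratin associated proteins), 24 on chromosome 15 (type II with Krt18), 24 on chromosome 16 (keratin associated proteins), 5 on chromosome 7, 3 on chromosome 10 and 2 on chromosome 1. A promoter was counted as called when a peak summit lay within 3000 bp of any transcript start of the gene. The 145 starts of the family gave windows of 0.689 Mb in all. Only 3 members, Krtap28-10, Krtap28-13 and Krtap3-2, had the start of a protein-coding gene outside the family within that distance.

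The RefSeq promoter table (250 bases before to 50 after a start, GRCm38.p6) matched 86 of the 106 genes with 87 promoters. Those of 3 genes are printed on the strand of the gene because they show how promoters of the family differ: Krt72 and Krt31, the 2 genes called in most libraries, and Krt5, which was called in 1. Capitals mark TATAAA on either strand. The sites that libraries shared at Krt72 and Krt31, described further below, lay outside these printed promoters.
Krt72 promoter (chr15:101786471-101786770, minus strand): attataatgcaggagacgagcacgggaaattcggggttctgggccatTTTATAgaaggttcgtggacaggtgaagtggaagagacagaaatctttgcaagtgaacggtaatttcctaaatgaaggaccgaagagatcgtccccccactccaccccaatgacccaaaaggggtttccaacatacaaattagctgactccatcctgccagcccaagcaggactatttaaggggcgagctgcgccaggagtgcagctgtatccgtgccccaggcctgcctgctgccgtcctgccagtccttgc
Krt31 promoter (chr11:100050502-100050801, minus strand): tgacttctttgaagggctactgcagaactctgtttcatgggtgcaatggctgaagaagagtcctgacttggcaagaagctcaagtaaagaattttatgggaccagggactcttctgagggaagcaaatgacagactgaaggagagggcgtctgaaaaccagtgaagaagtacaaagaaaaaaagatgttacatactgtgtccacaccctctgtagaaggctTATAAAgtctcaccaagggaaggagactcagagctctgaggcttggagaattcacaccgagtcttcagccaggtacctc
Krt5 promoter (chr15:101712856-101713155, minus strand): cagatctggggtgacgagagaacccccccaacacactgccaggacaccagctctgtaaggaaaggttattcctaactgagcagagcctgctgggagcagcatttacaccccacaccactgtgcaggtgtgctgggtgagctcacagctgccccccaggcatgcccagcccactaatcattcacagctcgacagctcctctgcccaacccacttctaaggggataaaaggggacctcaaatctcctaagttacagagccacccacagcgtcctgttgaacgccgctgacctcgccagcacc
Krt72 and Krt31 each held a TATAAA match, and Krt5 held no exact match to the motifs searched. The Krt72 match lay near the upstream end of the printed stretch, on the opposite strand. Matches were counted at any position, so a match does not show a working TATA box, nor its lack the absence of one. Across the family, TATAAA, the core of the TATA box, was found on either strand in 60 of 87 promoters (69.0%), against 13.6% of all 32851 promoters and 41.2% of olfactory receptor promoters. GGGCGG, the core of the GC box, was in 2 keratin family promoters (2.30%), against 35.7% of all. The AP-1 sites TGACTCA and TGAGTCA, which are each other's reverse complement, were in 7 (8.05%), against 5.20% of all. The palindromic estrogen response element, with 3 free bases between its arms, was in 0, against 0.0700% of all. The median ratio of observed to expected CpG was 0.221, against 0.384 in all promoters, 0.620 in those of other protein-coding genes and 0.107 in those of olfactory receptors. The median GC content was 44.7%, against 52.7%, 57.7% and 35.0%. TATAAA was thus common in this family, and CpG scarcer than in all promoters but not than in olfactory receptors.

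The libraries differed in list length and in the strength of their peaks. The lists held 30062 to 110724 peaks, all with a p-value under about 0.01, and 7.35% to 46.4% of each list had q of 0.05 or less. The background recovered from the peaks, which scales with depth, ran from 0.713 to 1.42 tags per window. Libraries numbered 1 stood apart: other protein-coding promoters were called in 61.0% ± 2.42 (SD, n = 4) in them and in 29.1% ± 13.2 (SD, n = 8) in those numbered 2 and 3. Vehicle replicate 3 was nearer to the former, with 54.0% called and 43.5% at q of 0.05 or less. Values with and without the 4 libraries numbered 1 are therefore given. The cell type label was checked by the same measure: at least 7 of 12 libraries called 5 of 12 fibroblast markers, 0 of 8 epithelial, 1 of 7 skeletal muscle, 0 of 5 endothelial and 0 of 5 immune markers, against 32.5% of all protein-coding genes. The fibroblast count is thus near the share of all genes. Identity rests on the labels and on the paper, which reports that all isolated fibroblasts stained for ESR1 and PDGFRA. At q of 0.05 or less, at least 1 library called 11 of 12 fibroblast and 3 of 8 epithelial markers. For skeletal muscle, endothelial and immune markers the counts were 2 of 7, 1 of 5 and 0 of 5, against 64.9% of all genes. Across libraries, 2 to 10 fibroblast markers and 0 to 5 epithelial markers were called. Calls ran from 0 (Tcf21) to 10 libraries (Fn1) over the fibroblast list and from 1 to 5 (Cldn7) over the epithelial list. Pdgfra, a receptor that marks these fibroblasts, was called in 7 libraries, 5 of them with q of 0.05 or less. Esr1, the estrogen receptor gene, was called in 7, with 3 at that level and none of those numbered 1. Epcam, an epithelial adhesion gene, was called in 1 library, with q of 0.05 or less. Trp63, a regulator of basal epithelial keratins, was called in 1, with q over 0.05. Cdh1, which encodes E-cadherin, was called in 4 libraries, in none with q of 0.05 or less.

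By share of genes, keratin family promoters were called less often than other promoters in every library, but they were not silent in the full lists. The share counts genes, and a gene with several starts can have a wider window. Peak densities per Mb of window are given further below. In the vehicle libraries, 27.4%, 24.5% and 15.1% of the 106 promoters had a peak. In the E2 libraries the shares were 31.1%, 13.2% and 7.55%. They were 23.6%, 14.2% and 7.55% with E2 plus fulvestrant, and 23.6%, 7.55% and 8.49% with fulvestrant. The highest share in every treatment was that of the library numbered 1, and the median of the 12 was 14.6%. The 95% Wilson interval, which covers counting error only, ran from 3.87% to 14.2% at the lowest share and from 23.1% to 40.5% at the highest.

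**Figure D1:**
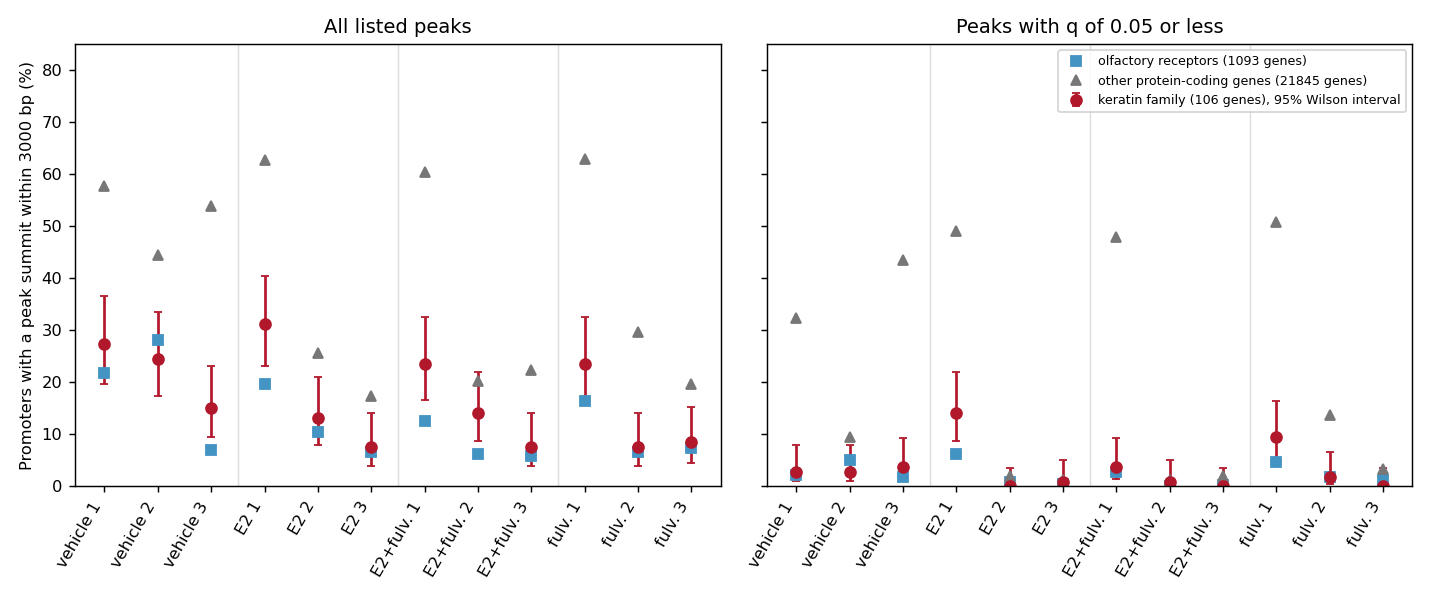
Percent of promoters with a peak summit within 3000 bp of a start, for each of the 12 libraries (x axis), with all listed peaks (left) and with peaks of q 0.05 or less (right). Circles are the 106 keratin family genes with 95% Wilson intervals, squares the 1093 olfactory receptor genes and triangles the 21845 other protein-coding genes, which include the olfactory receptors. Circles lie between 7.55% and 31.1% on the left, below the triangle in every library, and between 0 and 14.2% on the right.

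Other protein-coding promoters were called in 17.4% to 62.9% per library. The keratin family share was lower by 22.8 points ± 12.2 (SD, n = 12 libraries), and lower in 12 of 12 (exact two-sided sign-flip permutation test, p = 0.000488, the smallest it allows, adjusted p = 0.000977 over 4 comparisons within libraries). In the 8 libraries numbered 2 and 3 the difference was -16.9 points (exact permutation p = 0.00781). Olfactory receptor genes, another clustered family that fibroblasts are not known to use, were called in 5.95% to 28.2%. The keratin family lay above them by 4.57 points ± 4.64 (SD), in 11 of 12 libraries (exact sign-flip permutation test, p = 0.00830, adjusted p = 0.0111). The exception was vehicle replicate 2, the longest list. The difference was 2.46 points in the libraries numbered 2 and 3, higher in 7 of 8 (exact permutation p = 0.133), and 1.15 points with windows of 1000 bp (exact permutation p = 0.419).

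At q of 0.05 or less the family was close to empty in most libraries. The number of promoters called was 3, 3 and 4 in the vehicle libraries, 15, 0 and 1 with E2, 4, 1 and 0 with E2 plus fulvestrant, and 10, 2 and 0 with fulvestrant. E2 replicate 1 (14.2%) and fulvestrant replicate 1 (9.43%) were thus the only libraries above 4 genes. A count of 0 of 106 has an upper 95% Wilson bound of 3.50%. In the same lists, other protein-coding promoters were called in 1.29% to 50.8% and olfactory receptors in 0.183% to 6.22%. Where the family had 0 or 1 call, other protein-coding promoters were rare too. Their share was 1.93% and 1.33% in E2 replicates 2 and 3, and 1.29% and 2.05% in E2 plus fulvestrant replicates 2 and 3. In fulvestrant replicate 3 it was 3.28%. Each of these lies below 3.50%, so these lists cannot set the family apart from other genes. The keratin family mean was 3.38% ± 4.28 (SD, n = 12) and that of the olfactory receptors 2.30% ± 2.02, a difference of 1.08 points that did not pass the exact permutation test (p = 0.238). Of the 239 keratin family promoter peaks, 43 had q of 0.05 or less.

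The share rose with the length of the list across libraries (Pearson r = 0.865, permutation p = 0.000370, Spearman rho = 0.907, p = 0.000170, n = 12, 1 relation tested). Without vehicle replicate 2 and E2 replicate 1, the 2 libraries farthest from the median list length, r was 0.959 (permutation p = 0.000120). Within the 8 libraries numbered 2 and 3, r was 0.920 (p = 0.00320) and rho 0.756 (p = 0.0415, both by permutation). The 4 libraries numbered 1 were too few for a value of their own. A longer list gives every gene more chance of a peak, so the relation is not shown to be particular to the family. Olfactory receptors were called in 28.2% in the longest list (vehicle replicate 2) and in 7.41% in the shortest (fulvestrant replicate 3).

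The treatments could not be separated by the keratin family share. It was 22.3% ± 6.42 in vehicle, 17.3% ± 12.3 with E2, 15.1% ± 8.06 with E2 plus fulvestrant and 13.2% ± 9.0 with fulvestrant (SD, n = 3 each). With 3 libraries against 3, the smallest p an exact two-sided permutation test allows is 0.10. E2 minus E2 plus fulvestrant was 2.20 points (p = 0.90, exact, adjusted p = 0.90). E2 minus vehicle was -5.03 points (p = 0.60, exact, adjusted p = 0.75). Fulvestrant minus vehicle was -9.12 points and E2 plus fulvestrant minus vehicle was -7.23 points (p = 0.20 each, exact, adjusted p = 0.50). The interaction, or the E2 effect in cells without the antagonist less that in cells given it, was -6.92 points (permutation test, p = 0.515, adjusted p = 0.75). Within number 1 the same 5 values, in that order, were 7.55, 3.77, -3.77, -3.77 and 3.77 points, with 1 library per treatment. Within numbers 2 and 3 they were -0.472, -9.43, -11.8, -8.96 and -12.3 points. The vehicle lists were also the longest on average, at 77491 peaks ± 33183 (SD, n = 3) against 43603 to 53086 in the other treatments. The part of list length in these differences was not tested. Relative to the other protein-coding share of the same library, the last 4 of the 5 values turned positive, at 11.8, 5.5, 10.5 and 6.80 points. As a ratio to that share, an alternative added after the data were seen, the 5 values were 0.00643, 0.0473, -0.0814, 0.0409 and -0.0749, so that fulvestrant minus vehicle and the interaction stayed negative.

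Single genes gave as little separation. Krt13, a keratin of the mucosal epithelia, was called in all 3 libraries of E2 plus fulvestrant and in none of the 9 others. It was the only member called in every library of that treatment and none of E2, a pattern that 0.228% of all genes had, and the only one called in every library of that treatment and none of vehicle (0.15% of all genes). Its 4 peaks lay 34 bp downstream and 2165 to 2583 bp upstream of a start, and the strongest had -log10 q of 0.499. No member met any of the 6 other patterns. Their shares among all genes follow. A call in every E2 library and in none with E2 plus fulvestrant was true of 0.26%, in every E2 library and none of vehicle of 0.15%, and the reverse of the latter of 0.574%. Fulvestrant without vehicle had 0.0592%, vehicle without fulvestrant 0.579%, and vehicle without E2 plus fulvestrant 0.679%.

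Few members were called again and again. The median keratin family gene was called in 2 of 12 libraries and the median other protein-coding gene in 5. In no library were 23 of the 106 called (21.7%), against 11.8% of all genes, and 83 were called in at least 1, a state that 88.2% of all genes reached. Another 48 (45.3%) were called in 1 or 2 libraries, against 17.6% of all genes. Being called in at least 7 of 12 libraries was true of 32.5% of all genes but of only 2 members (1.89%), Krt72 with 8 and Krt31 with 7. The share of olfactory receptors at that level was 2.38% (26 of 1093). With q of 0.05 or less, 76 members were called in no library (35.1% of all genes), 30 in at least 1 (64.9% of all genes), 27 in 1 or 2 (19% of all genes) and 0 in at least 7 (3.74% of all genes), and no member exceeded 4 libraries.

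**Figure D2:**
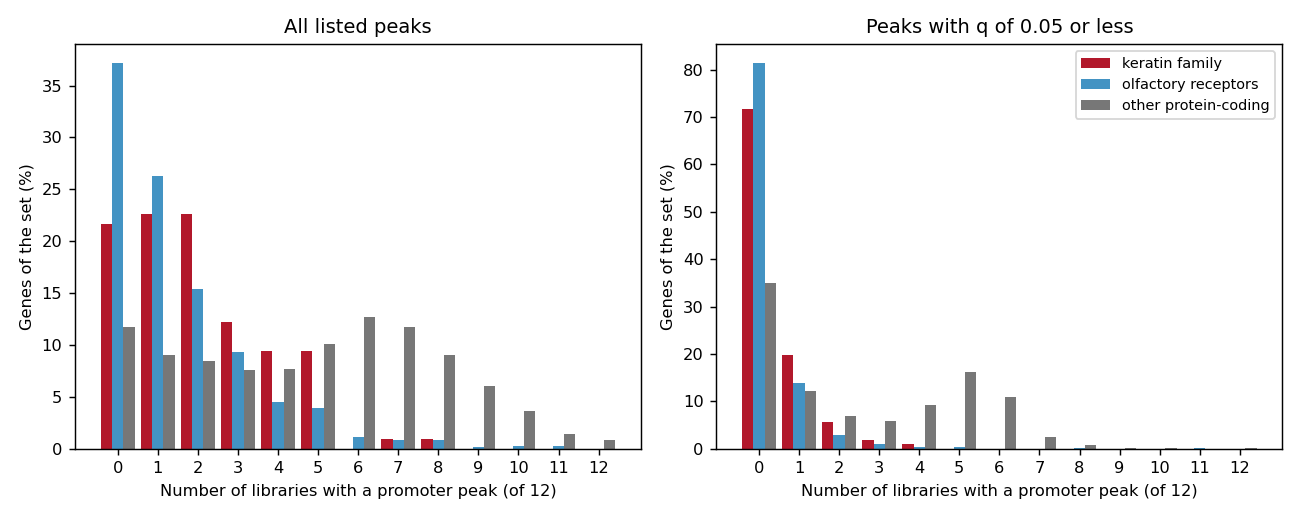
Share of genes (y axis, percent of each set) by the number of libraries, 0 to 12, in which the promoter was called (x axis), with all listed peaks (left) and peaks of q 0.05 or less (right). Bars are keratin family, olfactory receptor and other protein-coding genes. Keratin family bars end at 8 libraries on the left and at 4 on the right.

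Most sites in the family were found in a single library. The 239 peaks merged into 184 regions, of which 149 were found in a single library, 23 in 2, 7 in 3, 3 in 4 and 2 in 5, at Krt80 and Krt72. No region was shared by more than 5 libraries. The sequence at 226 of the 239 summits (94.6%) occurred once in the genome, and 13 summits lay in sequence with 2 or more copies. The 200 bases around the middle summit are printed for the 4 members whose shared sites the text turns on, on the plus strand of GRCm38, the sequence of mm10. Capitals in the Krt72 line mark copies of its commonest 12-base unit, and those in the Krt10 line a GGGCGG match on the minus strand.
Krt80 shared peak (chr15:101370353-101370552): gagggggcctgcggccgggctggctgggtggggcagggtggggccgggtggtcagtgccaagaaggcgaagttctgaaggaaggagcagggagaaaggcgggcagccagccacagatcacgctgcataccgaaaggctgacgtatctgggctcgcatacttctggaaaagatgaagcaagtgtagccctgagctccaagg
Krt72 shared peak (chr15:101779748-101779947): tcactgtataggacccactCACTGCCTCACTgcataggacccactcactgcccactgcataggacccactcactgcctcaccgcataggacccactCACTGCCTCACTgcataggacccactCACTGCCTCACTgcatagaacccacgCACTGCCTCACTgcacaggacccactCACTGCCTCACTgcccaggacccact
Krt31 shared peak (chr11:100048242-100048441): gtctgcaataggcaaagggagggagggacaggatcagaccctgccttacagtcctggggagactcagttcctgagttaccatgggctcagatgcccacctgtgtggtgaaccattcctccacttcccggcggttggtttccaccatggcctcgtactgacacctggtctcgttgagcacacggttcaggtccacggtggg
Krt10 shared peak (chr11:99386066-99386265): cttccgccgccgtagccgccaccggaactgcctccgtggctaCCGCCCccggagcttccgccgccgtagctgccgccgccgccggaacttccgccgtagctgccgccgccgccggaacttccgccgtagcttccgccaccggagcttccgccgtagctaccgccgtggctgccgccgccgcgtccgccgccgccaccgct
These show how unlike the repeated sites were: a GC-rich upstream stretch at Krt80, a tandem repeat at Krt72, exon sequence at Krt31 and GC-rich exon sequence at Krt10.

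Krt80, a keratin found in many epithelia and the only member with any peak at -log10 q of at least 5, had the site repeated most often with q of 0.05 or less, in 4 libraries. Its -log10 q was 7.70 in E2 replicate 1, 5.37 in vehicle replicate 3, 3.87 in fulvestrant replicate 1, 1.63 in E2 plus fulvestrant replicate 1 and 0.268 in fulvestrant replicate 2. The other 7 libraries listed no peak, so each treatment had libraries with and without it. All 5 summits fell 283 to 346 bp upstream of a start, in a region of 798 bp at chr15:101370078-101370875 with 56.8% GC, outside keratin exons. Of the 4 libraries numbered 1, 3 held it, and fold enrichment at the strongest summit was 5.88.

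Krt72, a type II keratin of the inner root sheath, was called in 8 libraries. Its best -log10 q was 0.336 and 2.87 in vehicle replicates 1 and 2, 1.82 and 0.857 in E2 replicates 1 and 2, 1.82, 0.255 and 0.0377 in the E2 plus fulvestrant replicates, and 0.849 in fulvestrant replicate 1. Only 3 of the 8 reached q of 0.05. Of the 8, 5 shared a region of 592 bp within the gene and outside its exons, 1136 to 1290 bp upstream of an internal start. That region repeated with a period of 26 bp, at which 67.0% of its bases matched, and the printed unit CACTGCCTCACT occurred 13 times in it. The other 3 libraries had peaks elsewhere in the gene.

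Krt31, a type I hair keratin, was called in 7 libraries. Its best -log10 q was 1.54 in vehicle replicate 1, 0.334 and 0.857 in E2 replicates 1 and 2, 0.944 in E2 plus fulvestrant replicate 1, and 1.66, 1.54 and 0.536 in the fulvestrant replicates. Of these, 4 libraries, vehicle replicate 1 and the 3 given fulvestrant alone, shared chr11:100048094-100048532, 2186 to 2324 bp downstream of the start, with 3 of the 4 summits in a keratin exon. In E2 replicate 2 and E2 plus fulvestrant replicate 1 the summit lay 34 and 267 bp from a start of the antisense gene Gm11571 instead.

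Of the classical keratin pairs, only Krt10 had peaks with q of 0.05 or less, and only in libraries numbered 1. Krt8 was called in 4 libraries and its partner Krt18 in 1, none with q of 0.05 or less. The best -log10 q was 1.28 for Krt8, in vehicle replicate 3 at 1011 bp upstream, and 0.336 for Krt18. Krt5 was called in 1 library (-log10 q 0.499) and its basal partner Krt14 in 3 (at most 1.28), 2 of which shared a site. Krt1 was called in 5 libraries, at most at 1.12. Its suprabasal partner Krt10 was also called in 5, with 2 at q of 0.05 or less and the best at 3.66 in fulvestrant replicate 1. At Krt10, the 4 libraries numbered 1, and none of those numbered 2 and 3, overlapped in chr11:99385924-99386931. The site lay over exon sequence near an internal start of the gene. Summits there lay from 647 bp upstream to 37 bp downstream of that start, and some lay nearest a start of Gm11940. The printed 200 bases there hold 77.0% GC. Krt19, a small simple keratin, was called in 5 libraries, with summits scattered from 1257 bp upstream to 1764 bp downstream. Of these, 2 libraries, both numbered 1, had q of 0.05 or less. Krt7 of simple epithelia was called in 3 libraries and Krt17 of stressed epidermis and hair in 2, none with q of 0.05 or less.

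**Figure D3:**
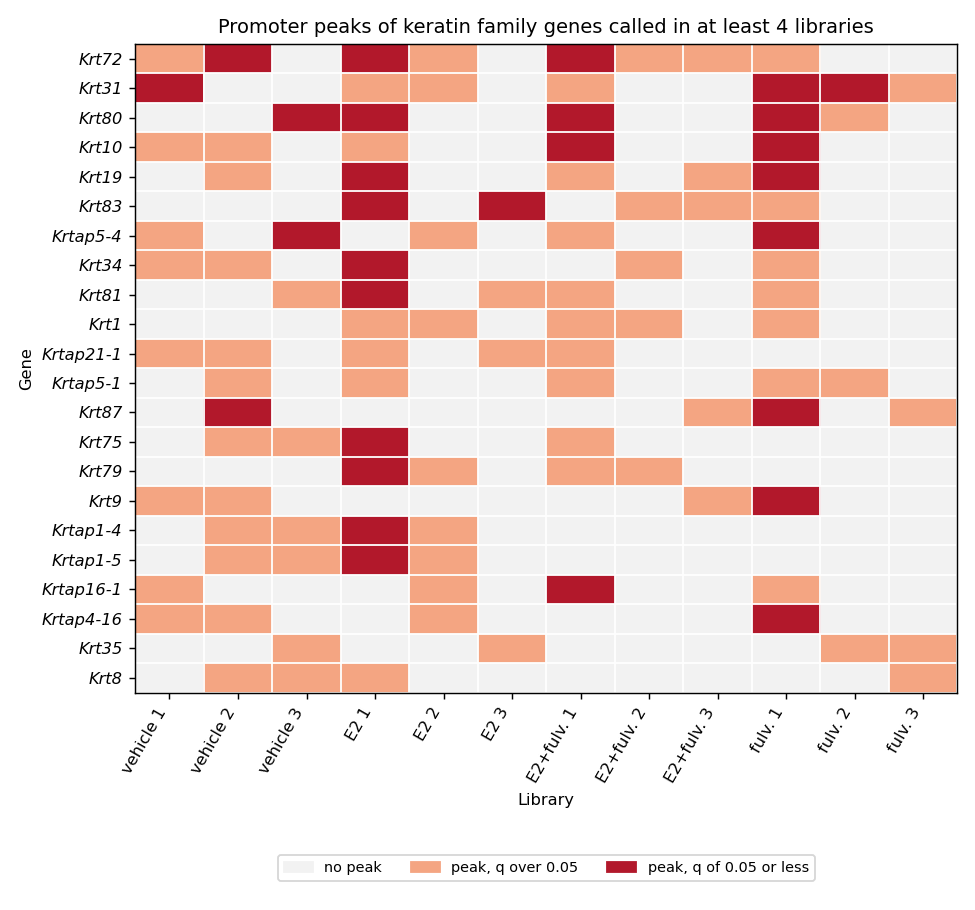
Promoter calls of the 22 keratin family genes called in at least 4 libraries (rows), in each of the 12 libraries (columns). Pale cells have no peak, orange cells a peak with q over 0.05 and red cells a peak with q of 0.05 or less. Krt80 has 4 red cells, Krt72 and Krt31 have 3 each, and no row is filled in more than 8 columns.

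By role, hair and root sheath keratins (21 genes) were called in 25.4% of gene and library pairs, simple epithelial keratins (7 genes) in 25.0%, epidermal and stratified keratins (17 genes) in 19.1%, 4 other keratins in 18.8%, and keratin associated proteins (57 genes) in 12.1%. The corresponding densities were 41.9, 37.1, 31.4, 25.2 and 21.5 peaks per Mb of window. Keratin associated proteins thus lay lowest on both measures, but they include all 24 genes of the chromosome 16 cluster, the lowest cluster. The small clusters on chromosomes 7, 10 and 1 also hold only keratin associated proteins and lay higher. The low value is therefore not shown for the role as a whole. Other protein-coding promoters were called in a mean of 39.8% per library. The lowest cluster was that on chromosome 16, where the density was 11.6 per Mb ± 13.7 (SD, n = 12) at 39.2% GC. There 12 of 24 genes were never called, against 11.8% of all genes and 37.1% of olfactory receptors. Chromosome 15 had 33.9 per Mb ± 14.3 at 50.7% GC and chromosome 11 had 31.4 ± 18.7 at 45.5% GC. The small clusters on chromosomes 7, 10 and 1, with 5, 3 and 2 genes, had 47.1 ± 50.1, 41.7 ± 53.6 and 34.7 ± 55.7 per Mb at 48%, 50% and 45.2% GC. Among the clusters of 24 or more genes, density was higher where GC content was higher. The small clusters, whose SDs exceed their means, did not keep that order. The part of GC content in these densities was not tested.

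Keratin family windows held more peaks than intergenic DNA. The density was 28.9 peaks per Mb (11.6 to 53.7 over libraries) in the windows and 15.3 (8.69 to 33.4) in 1375 Mb of intergenic sequence over 3000 bp from any start. The difference of 13.7 per Mb ± 11.6 (SD) was positive in 12 of 12 libraries (exact sign-flip permutation test, p = 0.000488, adjusted p = 0.000977). It was 6.37 per Mb in the 8 libraries numbered 2 and 3, higher in all 8 (exact permutation p = 0.00781). Windows of other protein-coding genes held 42.5 per Mb and those of olfactory receptors 15.5. In E2 plus fulvestrant replicate 2 the keratin family windows held more than those of other protein-coding genes, 24.7 against 20.1 per Mb. They held fewer in every other library. That difference in density was not tested. With q of 0.05 or less, keratin family windows held 5.20 per Mb and intergenic DNA 3.07 (exact permutation p = 0.112).

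Of keratin family summits, 27.0% ± 11.2 (SD, n = 12) lay within 500 bp of a start, a zone that makes up 18.9% of the window length. The excess of 8.14 points was found in 10 of 12 libraries (exact sign-flip permutation test, p = 0.0371, adjusted p = 0.0371). It was 4.05 points in the libraries numbered 2 and 3 (exact permutation p = 0.375), and leaving out any of 7 single libraries, named in the closing section, took p above 0.05. Other protein-coding genes had 46.7% there, against 21.7% of their window length, and olfactory receptors 30.9% against 21.4%. The 500 bp before the start held 32.4% of summits at other protein-coding genes but 7.95% at keratin family genes. The 500 bp after it held 21.8% of keratin family summits (52 of 239), close to the 21.2% at other protein-coding genes. At active promoters the accessible stretch usually lies just before the start.

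**Figure D4:**
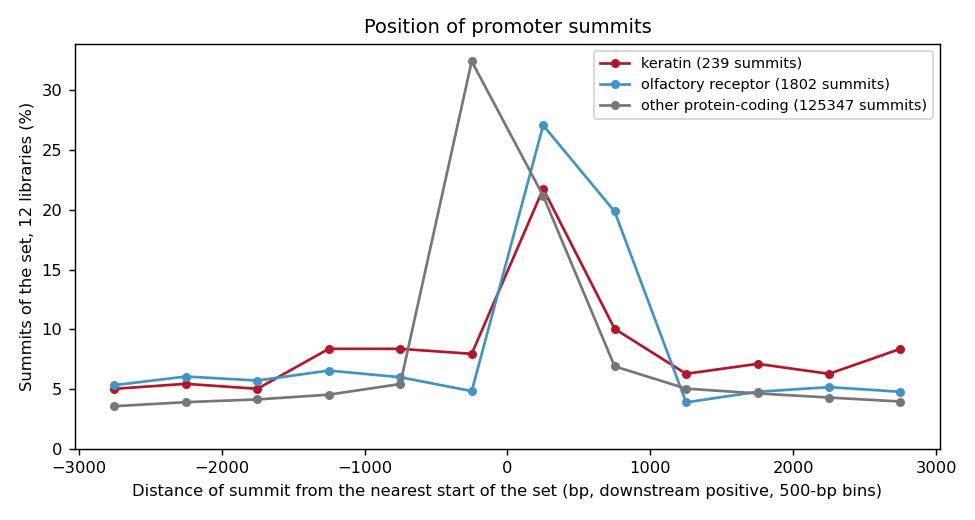
Position of promoter summits relative to the nearest start of the set (x axis, bp, downstream positive, 500-bp bins), as a percent of the summits of each set over the 12 libraries (y axis). Lines are keratin family, olfactory receptor and other protein-coding genes. Other protein-coding genes peak in the bin before the start, at 32.4%, and keratin family genes in the bin after it, at 21.8%.

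The summits favoured exons. Keratin exons held 60.6 peaks per Mb ± 40.8 (SD, n = 12), introns 35.0 ± 18.0 and the 3000 bp upstream 17.5 ± 9.89. Exons exceeded introns by 25.6 per Mb in 9 of 12 libraries (exact sign-flip permutation test, p = 0.0210, adjusted p = 0.0210 over 4 such comparisons) and upstream DNA by 43.1 per Mb in 11 of 12 (p = 0.000977, adjusted p = 0.00130). In the libraries numbered 2 and 3 these were 10.2 (exact permutation p = 0.297) and 27.8 per Mb (p = 0.0156). With q of 0.05 or less, exons exceeded introns by 1.33 per Mb (exact permutation p = 0.568). Exons had 53.6% GC, introns 47.4% and the windows as a whole 45.7%, and summits in exons had a median of 57.0% GC in the surrounding 200 bp against 49.5% for the rest. The part of GC content was not tested.

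**Figure D5:**
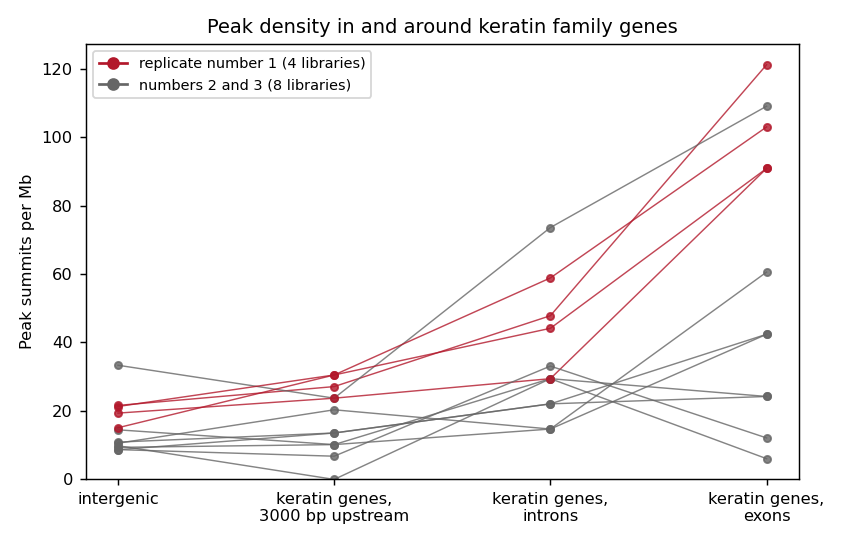
Peak summits per Mb (y axis) in intergenic DNA and in the upstream 3000 bp, introns and exons of keratin family genes (x axis), with a line for each of the 12 libraries. Red lines are the 4 libraries numbered 1 and grey lines the 8 numbered 2 and 3. Exons reach 121 per Mb, upstream sequence lies between 0 and 30.5, and 3 of the grey lines fall from introns to exons.

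Other filament genes and genes tied to keratins were counted by the same measure. Of 16 non-keratin intermediate filament genes, 4 were called in at least 7 libraries. Vim, the filament of fibroblasts, was called in 10 libraries, 6 of them with q of 0.05 or less, and Lmna, of the nuclear lamina, in 10 with 7. Des, the filament of muscle, was called in 6, none with q of 0.05 or less. Of 12 genes for proteins that anchor keratin filaments at desmosomes and hemidesmosomes, 7 were called in at least 7 libraries. The count was 3 of 12 for regulators of epithelial genes and 1 of 10 for the cornified envelope, which fills the outer epidermis, all against 32.5% of all genes. The last of these was Flg, whose product filaggrin binds keratin filaments in the outer epidermis. It was called in 12 of 12 libraries, 7 of them with q of 0.05 or less. A call in 12 of 12 was true of 178 of 21845 other protein-coding genes (0.815%). Flg was named after its values were seen, and copies of its sequence in the genome were not counted.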

How the data were processed

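Peak lists of 12 ATAC-seq libraries, 3 per treatment, were used, with groups and replicate numbers from the labels. Per the study's methods, the authors trimmed reads with Trimmomatic, aligned them to mm10 with Bowtie2, removed duplicates with Picard and called peaks for each library with MACS2, without a fragment model. The smallest deposited -log10 p-value in any list was 2.01. In the deposited lists each peak has a fold enrichment (the ratio of tag pileup to local background, each with 1 added), a p-value and a q-value, both as -log10, and a score, which is 10 times the -log10 p-value cut to a whole number. Reads were not analysed here, so depth is known only as the relative background solved from fold and p-value for peaks under -log10 p of 15, with pileups whole within 0.002. ENCODE excluded regions were not used here. A longer list gives every gene more chance of a peak, and a gene without one is not shown to be closed.

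Promoters were called by a summit within 3000 bp of any GENCODE M21 transcript start, with all peaks and with -log10 q of at least 1.30103 (q of 0.05). GRCm38 gave sequence, and RefSeq gave promoters. Copies of a summit were counted in the genome from k-mers, and overlapping or touching peaks were merged into regions. Libraries were the units of every test. Sets were compared within libraries by exact sign-flip permutation, treatments by exact permutation, and the interaction and correlation by 100000 permutations, all two-sided, with Benjamini-Hochberg adjustment over 4 within-library comparisons and over 5 treatment values. The 4 comparisons of exons with introns or upstream DNA were added after summit positions had been seen. Named genes were members called in at least 7 libraries, members that separated treatments, 10 keratins fixed by name, members with q of 0.05 or less in at least 3 libraries, the most-peaked members of a cluster, and comparison genes from fixed lists. The 4 peak sequences printed were chosen after their values were seen. The members and lists were chosen with earlier results of these data known. Replicate numbers were not used to pair the libraries in the main tests. Over 18 same-numbered pairs, the correlation of deviations from group means ran from -0.198 to 0.407 and was over 0.1 in 11. Over 36 pairs of different number it ran from -0.313 to 0.278 and was over 0.1 in 10. The 6 pairs of number 1 ran from 0.0853 to 0.407. Scripts used Python 3.11.15, numpy 2.4.6, scipy 1.17.1, pandas 2.3.3 and matplotlib 3.10.9 and were tested on simulated data. Alternatives were other thresholds, windows, starts, members and libraries.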

Additional observations from a re-analysis of the deposited data

How the results depend on the processing

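The keratin family share stayed below that of other protein-coding genes under all 21 alternatives, at p of 0.05 or less in 20, and within number 1 the difference was -34.6 points, where 4 libraries allow no p below 0.125. Another 3 values kept their direction there under that limit: 8.78 points over olfactory receptors, 28.2 per Mb over intergenic DNA and 16.3 points of excess near starts, as did exons over introns (56.4) and over upstream DNA (73.5 per Mb). With q of 0.05 or less, keratin minus olfactory receptor was 1.08 points, keratin minus intergenic density 2.13 per Mb, the excess 3.32 points (9 libraries) and exons minus introns 1.33 per Mb, none past 0.05, and 0 genes reached 7 libraries. In the same lists E2 minus vehicle turned to 1.89 points, fulvestrant minus vehicle to 0.629 and the interaction to 4.09. At -log10 q of at least 5 the values were 0.0734 points over olfactory receptors, -0.201 per Mb against intergenic DNA, 81.1 points of excess (2 libraries), r of 0.559 (permutation p = 0.0906) and 0 genes in 7 libraries, with 1 member, Krt80, called. With windows of 1000 bp the olfactory receptor difference was 1.15 points and 0 genes reached 7 libraries. With the 5-prime-most start only, the excess was 8.10 points (exact permutation p = 0.0981) and 1 gene reached 7 libraries. In numbers 2 and 3, the olfactory receptor difference was 2.46 points, the excess 4.05 points, exons minus introns 10.2 per Mb and E2 minus E2 plus fulvestrant -0.472 points. Within number 1, E2 minus vehicle and the interaction were both 3.77 points. Relative to other protein-coding genes, E2 minus vehicle was 11.8, fulvestrant minus vehicle 5.5, E2 plus fulvestrant minus vehicle 10.5 and the interaction 6.80 points. As a ratio to that share, E2 minus vehicle was 0.0473 and E2 plus fulvestrant minus vehicle 0.0409. The causes of these changes were not tested.

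Leaving out 1 library at a time gave -24.3 to -21.3 points against other genes, 3.95 to 5.32 against olfactory receptors, 11.9 to 14.7 per Mb against intergenic DNA, r of 0.851 to 0.967, 21.3 to 30.1 per Mb for exons minus introns and 38.4 to 47.4 for exons minus upstream. The excess near starts ran from 7.14 to 10.6 points and its p rose to between 0.0605 and 0.0723 without vehicle replicate 1 or 3, E2 replicate 1, 2 or 3, E2 plus fulvestrant replicate 1 or fulvestrant replicate 1. E2 minus E2 plus fulvestrant ran from -4.72 (without E2 replicate 1) to 7.08 points and was -1.57 without E2 plus fulvestrant replicate 3. E2 minus vehicle ran from -11.9 to -0.157, E2 plus fulvestrant minus vehicle from -11.5 to -3.46, fulvestrant minus vehicle from -14.3 to -6.29 and the interaction from -13.8 to -2.04 points. With the replicate number as a block, the 5 treatment values kept their size (2.20, -5.03, -9.12, -7.23 and -6.92 points) and none passed, with p from 0.25 to 1 in exact tests of 3 pairs that allow no less than 0.25, and 0.316 for the interaction. Of the 12 libraries, 11 correlated more on average with their own number than with the other numbers together. Among the 3 numbers taken singly, 6 libraries correlated best with their own. The lists give no read totals, so a promoter without a peak may only be too shallow to be listed.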

Other observations

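Exons were favoured outside the keratin family as well. Olfactory receptor exons held 25.3 peaks per Mb ± 16.0 (SD, n = 12) against 10.9 ± 7.32 in the 3000 bp upstream, higher in 12 of 12 libraries (exact sign-flip permutation test, p = 0.000488, adjusted p = 0.000977). At other protein-coding genes, exons over 3000 bp from a start held 27.5 per Mb ± 12.1 and introns at that distance 20.1 ± 10.3, again with exons higher in 12 of 12 (exact permutation p = 0.000488, adjusted p = 0.000977). In the 8 libraries numbered 2 and 3 both differences kept their direction in all 8 (exact permutation p = 0.00781 each). The keratin family exceeded its upstream DNA by 3.46-fold and the olfactory receptors theirs by 2.31-fold; whether these ratios differ was not tested.

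Among keratin associated proteins, Krtap21-1 had a site found in 4 libraries at chr16:89403424-89403786, none with q of 0.05 or less. The site repeated with a period of 24 bp, at which 77.0% of its bases matched, and all 4 summits lay in its exon. Krtap1-4 and Krtap1-5 shared a site in 3 libraries, with a best -log10 q of 2.27, at 62.4% GC. Krt34 and Krt81, both hair keratins, each had an exonic site in 3 libraries. Krt83, another hair keratin, had a site in 3 libraries at 542 to 598 bp upstream, with 41.4% GC and 2 of the 3 at q of 0.05 or less. These were chosen after their values were seen.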
